A study of Mus musculus with 9 samples.

Results

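Neonatal mouse cardiac fibroblasts infected with MGT virus were compared with the same kind of cells infected with DsRed virus, over all gene symbols of the deposited expression table. The comparison used 6 of the 9 libraries of the series, 3 labelled MGT and 3 labelled DsRed; the other 3 received MGT together with a histone deacetylase inhibitor, TMP269, and entered only the estimate of the spread between libraries. MGT stands for Mef2c, Gata4 and Tbx5, and DsRed is a red fluorescent protein that served as the control cargo. All cells were labelled wild type (WT), were seeded at 10000 cells per cm2, were exposed to virus with polybrene 24 h later and were kept in induction medium of DMEM, medium 199 and serum until RNA was taken on day 14. No inhibitor is given for either of the 2 groups. The replicates are numbered as biological, but the labels name no cultures or animals, so the spread behind each p-value may be technical only. The table held 34779 named genes, of which 13228 passed a minimum mean of 1 TPM (a share of all transcripts, corrected for transcript length) over the 9 libraries and were tested.

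Mef2c, Gata4 and Tbx5 are transcription factors of the developing heart, where they act together on genes for contractile proteins, calcium handling and chamber identity. Forced into fibroblasts, they start a partial conversion towards a cardiomyocyte-like state, in which muscle genes are switched on while the fibroblast programme of matrix production and growth factor signalling is reduced to a varying extent. Cultures of this kind are mixtures of converted, partly converted and unconverted cells. The RNA was measured in bulk, so fewer cells of a type and less RNA per cell cannot be told apart in any value below.

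DsRed replicate 2 stood apart from the other 5: its upper quartile of gene levels was 5.38 TPM, against 8.69 to 9.05 TPM in the MGT libraries and 8.74 and 9.19 TPM in DsRed replicates 1 and 3. Transcripts longer than 4 kb made up 1.97% of its TPM, against 3.50% to 3.62% in the MGT libraries and 3.68% and 3.80% in the other DsRed libraries. Across 13150 genes, its deviation from the other DsRed libraries fell with transcript length (Spearman rho -0.338, a description across genes, which are not independent). Its correlation with DsRed replicates 1 and 3 was 0.9432 and 0.9416, against 0.9731 between those 2 libraries and 0.9784 to 0.9811 among the MGT libraries. List counts and the main fold changes are therefore given with all libraries and again without DsRed replicate 2, written below as without DsRed 2. TPM values keep no sequencing depth, so the depth behind the values is unknown.

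With all 3 DsRed libraries, 1630 of the 13228 genes tested (12.3%) passed an adjusted p of 0.05, of which 1077 were higher (8.14%) and 553 lower (4.18%) with MGT. Without DsRed replicate 2, 3476 genes passed (26.3%), of which 1652 were higher (12.5%) and 1824 lower (13.8%). These shares are the background for every count of list members below. The share of calls that were higher was thus 66.1% with that library and 47.5% without it. It was 57.8% after median-ratio scaling and 51.2% after quantile normalization of all 3 DsRed libraries, 51.9% with array weights and 56.2% after removal of a length trend. The array weights gave DsRed replicate 2 a weight of 0.05, the lowest of the 9 libraries. The median log2 fold change over all genes was 0.11 with DsRed replicate 2 and -0.03 without it, so small shifts are read against these medians. The fits shared 1606 calls, all in the same direction (1058 higher and 548 lower), 24 genes were called only with DsRed replicate 2 and 1870 only without it. Large changes were mostly rises: 104 genes rose and 4 fell by at least 8-fold with all libraries, and 96 rose and 5 fell without DsRed replicate 2. Every MGT library lay above every DsRed library in 19.1% of the genes tested and below in 9.63%, which is the background for statements below that groups did not overlap. The number of calls was smaller without MGT replicate 1 (1085), MGT replicate 2 (1118), MGT replicate 3 (1068) or DsRed replicate 1 (1429).

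**Figure D1:**
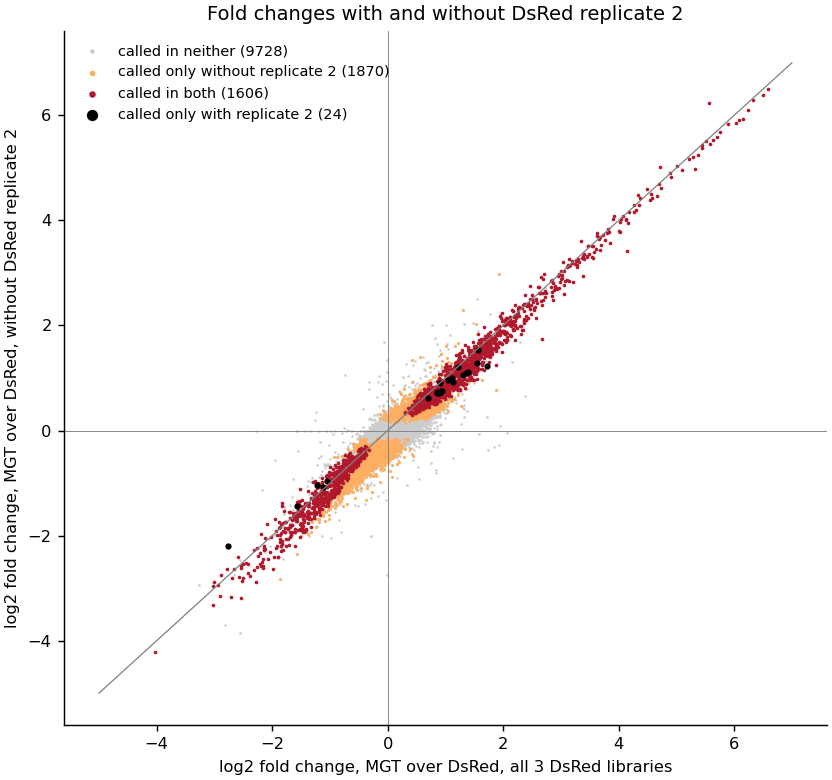
Each point is 1 of the 13228 genes tested, with its log2 fold change (MGT over DsRed, on log2(TPM + 1)) fitted with all 3 DsRed libraries on one axis and without DsRed replicate 2 on the other, coloured by whether it was called in both fits (1606), only with that library (24), only without it (1870) or in neither (9728). The large rises lie close to the diagonal, and most genes called only without DsRed replicate 2 have small fold changes.

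The delivered factors were read first, as a check of the labels. Mef2c had 691, 599 and 654 TPM in MGT libraries 1, 2 and 3, against 7.64, 34.2 and 7.54 TPM in DsRed libraries 1, 2 and 3. DsRed replicate 2 held more Mef2c than its partners but lay far below every MGT library. Gata4 had 270.1, 235 and 263 TPM with MGT, against 70.7, 40.7 and 76.4 TPM with DsRed, and Tbx5 had 389, 372 and 386 TPM with MGT, against 4.50, 2.99 and 6.16 TPM with DsRed, in the same order of libraries. All 3 factors were higher in every MGT library than in any DsRed library, and the fitted log2 fold changes were 5.56, 2.06 and 6.15 (6.24, 1.79 and 5.93 without DsRed replicate 2). Viral and endogenous transcripts cannot be told apart in these values.

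Muscle genes were prominent among the large rises. Of 149 tested genes in 10 lists of muscle structure and excitation, 100 were higher and 3 lower with all libraries, and 106 were higher and 12 lower without DsRed replicate 2. Over all genes tested, 8.14% were higher and 4.18% lower, and 12.5% and 13.8% without that library. The lists were chosen with earlier results of these data known, so these counts are a description and not a test. Of 200 genes on these lists, 149 passed the filter on low values. A gene near 0 with DsRed could pass it only through libraries that received MGT. The rise of such a gene was thus largely set by the filter, here and in the lists below. The median log2 fold change of the 149 genes was 1.37 with DsRed replicate 2 and 1.24 without it, against 0.11 and -0.03 over all genes. They supplied 22 of the 40 largest rises and none of the 40 largest falls. Among those 22 genes, Tnnt2, cardiac troponin T, was the most abundant with MGT after Myl4. It had 3841, 4243 and 3829 TPM with MGT, against 157, 246 and 196 TPM with DsRed (log2 4.33, and 4.49 without DsRed replicate 2).

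The atrial genes Myl4, Myl7 and Sln rose, while the ventricular genes Myl2, Myl3 and Myh7 were near 0 in both groups. Myl4, the essential light chain of atrial myosin, had 5719.8, 6115 and 5769 TPM with MGT, against 61.8, 69.1 and 89.1 TPM with DsRed (log2 6.32 ± 0.13, adjusted p = 8.59e-09, and 6.29 ± 0.13 without DsRed 2; here and below ± is the standard error of the log2 fold change). Myl7, the atrial regulatory light chain, had 771, 866 and 746 TPM with MGT, against 12.0, 11.5 and 13.8 TPM with DsRed. Myl7 differed by log2 5.89 ± 0.11 (adjusted p = 8.59e-09), and by 5.84 ± 0.10 without DsRed 2. Sln, sarcolipin, which restrains the calcium pump in atrial muscle, had 150.5, 154 and 143 TPM with MGT, against 1.33, 1.53 and 2.66 TPM with DsRed. Sln differed by log2 5.75 ± 0.16 (adjusted p = 2.52e-08), and by 5.68 ± 0.16 without DsRed 2. In all 3 genes the lowest MGT library stood many-fold above the highest DsRed library, and DsRed replicate 2 was not set apart from its partners. The voltage-gated potassium channel Kcna5, which carries an atrial repolarising current in human, had 3.83, 5.26 and 4.03 TPM with MGT, against 0.129, 0.198 and 0.524 TPM with DsRed (log2 2.07 ± 0.21, adjusted p = 0.000142, and 2.02 ± 0.20 without DsRed 2). Pam, an enzyme that amidates peptides and is abundant in atrial granules, had 609, 646 and 639 TPM with MGT, against 357, 284 and 375 TPM with DsRed. Pam differed by log2 0.90 ± 0.12 (adjusted p = 0.000684), and by 0.78 ± 0.06 without DsRed 2. Of the ventricular genes, Myl2, the ventricular regulatory light chain, was at 0, 0 and 0.400 TPM with MGT and 0.427, 0.786 and 0.553 TPM with DsRed, and Myl3, its essential partner, was at 0, 0.214 and 0.398 TPM with MGT and 0, 0.268 and 0 TPM with DsRed. Myh7, the slow myosin heavy chain of the ventricle, reached at most 0.820 TPM. Myh6, another cardiac myosin heavy chain, rose, with 71.4, 75.5 and 67.0 TPM with MGT, against 2.52, 2.85 and 2.84 TPM with DsRed (log2 4.27 ± 0.12, adjusted p = 1.67e-08, and 4.30 ± 0.09 without DsRed 2). The 7 ventricular genes together summed to 2.83 to 4.82 TPM with MGT and 3.03 to 3.28 TPM with DsRed. Only 2 of the 7 passed the filter on low values, and limma called neither in either fit (1 was lower after quantile normalization, 1 was higher at an unadjusted p under 0.05 with all libraries and none without DsRed 2). Of 11 atrial genes tested, 6 rose and 1, Nr2f2, fell with all libraries, and 7 were higher and 3 lower without DsRed replicate 2. Nr2f2 encodes an atrial transcription factor and had 10.5, 9.80 and 15.1 TPM with MGT, against 40.5, 18.4 and 38.0 TPM with DsRed; its call was lost without MGT replicate 1, MGT replicate 2 or DsRed replicate 1.

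The atrial natriuretic peptide gene Nppa was among the genes whose value depended most on DsRed replicate 2. It had 24.2, 23.5 and 25.1 TPM with MGT, against 1.55, 39.0 and 9.49 TPM with DsRed (log2 1.31 ± 0.76, adjusted p = 0.335, and 2.29 ± 0.48, adjusted p = 0.00974, without DsRed 2). The MGT libraries were nearly equal, and DsRed replicate 2 alone lay above them.

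Fast skeletal contractile genes rose, while the transcription factors that switch them on in skeletal muscle were at or near 0. Of 14 listed genes, 11 passed the filter on low values, and all 11 were higher in both fits. Their median log2 fold change was 3.20 with all libraries and 3.23 without DsRed replicate 2. Members near 0 with DsRed could pass the filter only through libraries that received MGT, so this count is a description. Myh1, a fast myosin heavy chain, had 149, 149 and 143 TPM with MGT, against 1.28, 0.783 and 1.85 TPM with DsRed. Myh1 differed by log2 6.03 ± 0.17 (adjusted p = 2.52e-08), and by 5.86 ± 0.10 without DsRed 2. Tnnt3, the fast troponin T, had 90.0, 86.1 and 90.9 TPM with MGT, against 1.68, 3.55 and 4.18 TPM with DsRed (log2 4.50 ± 0.22, adjusted p = 1.06e-06, and 4.59 ± 0.23 without DsRed 2). Myl1, a fast essential light chain, had 71.1, 50.6 and 59.7 TPM with MGT, against 1.14, 2.22 and 2.78 TPM with DsRed. Myl1 differed by log2 4.36 ± 0.21 (adjusted p = 9.66e-07), and by 4.42 ± 0.23 without DsRed 2. No MGT library overlapped a DsRed library in any of the 3. Mybph, a myosin-binding protein of fast and conducting muscle, had 9.00, 10.2 and 7.74 TPM with MGT, against 0.124, 0.122 and 0 TPM with DsRed. Mybph differed by log2 3.20 ± 0.21 (adjusted p = 8.91e-06), and by 3.23 ± 0.22 without DsRed 2. The calls of Mylpf and Mybpc2 were lost in fits without MGT replicate 2, where 9 of the 11 genes were called. Myod1 and Myf5, which commit cells to skeletal muscle, were listed at 0 in all 6 libraries, and Myog, which drives their differentiation, was at 0.144, 0.266 and 0.413 TPM with MGT and 0, 0 and 0 TPM with DsRed. Reads of near-identical actin and fast myosin heavy chain genes can be split between copies by the counting, so the levels of single members are uncertain.

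Genes shared by slow and cardiac muscle were also higher, at larger absolute levels. Of 12 tested, 9 were higher with all libraries and 10 without DsRed replicate 2, and none was lower in either fit. Tnnc1, the slow and cardiac troponin C, had 216, 206 and 193 TPM with MGT, against 12.7, 16.1 and 9.61 TPM with DsRed (log2 3.92 ± 0.16, adjusted p = 3.18e-07, and 4.09 ± 0.11 without DsRed 2). Tnni3, the cardiac troponin I, had 35.9, 38.3 and 36.3 TPM with MGT, against 4.58, 2.78 and 4.90 TPM with DsRed. Tnni3 differed by log2 2.92 ± 0.19 (adjusted p = 7.23e-06), and by 2.72 ± 0.11 without DsRed 2. Mybpc3, the cardiac myosin-binding protein C, had 26.7, 25.7 and 24.7 TPM with MGT, against 0.466, 0.436 and 0.520 TPM with DsRed. Mybpc3 differed by log2 4.18 ± 0.13 (adjusted p = 3.32e-08), and by 4.16 ± 0.08 without DsRed 2. Every MGT library lay above every DsRed library in these genes. Tpm1, the main striated tropomyosin, had 4593, 4587 and 4432 TPM with MGT, against 1761, 1514 and 1781 TPM with DsRed (log2 1.43 ± 0.09, adjusted p = 5.52e-06, and 1.36 ± 0.04 without DsRed 2), a smaller rise from a high control level. Tpm2 had 803, 841 and 825 TPM with MGT, against 525, 841 and 554 TPM with DsRed, where DsRed replicate 2 lay at the level of the MGT libraries, and it passed only without that library (log2 0.61, adjusted p = 5.34e-05).

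Z-disc and M-band genes, which anchor and crosslink the filaments, gave 21 rises and no fall among 25 tested with all libraries, and 22 rises and 1 fall without DsRed replicate 2. Csrp3, a LIM protein of the Z-disc, had 112, 119 and 104 TPM with MGT, against 1.52, 0.974 and 1.59 TPM with DsRed (log2 5.58 ± 0.13, adjusted p = 1.09e-08, and 5.46 ± 0.07 without DsRed 2). Tcap, which caps titin at the Z-disc, had 60.2, 66.3 and 64.2 TPM with MGT, against 0.611, 0.353 and 0.496 TPM with DsRed. Tcap differed by log2 5.44 ± 0.14 (adjusted p = 1.67e-08), and by 5.38 ± 0.10 without DsRed 2. Synpo2l, an actin-associated Z-disc protein, had 129, 128 and 127 TPM with MGT, against 1.56, 1.13 and 1.78 TPM with DsRed. Synpo2l differed by log2 5.70 ± 0.13 (adjusted p = 1.09e-08), and by 5.60 ± 0.08 without DsRed 2. These genes were close to 0 in every DsRed library and uniform among the MGT libraries. Ttn itself had 14.4, 11.9 and 12.3 TPM with MGT, against 0.0584, 0.0860 and 0.161 TPM with DsRed (log2 3.65 ± 0.17, adjusted p = 7.77e-07, and 3.64 ± 0.14 without DsRed 2). The filamin gene Flnc had 103, 91.1 and 104 TPM with MGT, against 52.1, 20.7 and 62.9 TPM with DsRed, and its call was lost without any 1 of the MGT libraries. Palld, an actin-crosslinking protein of stress fibres, had 186, 182 and 187 TPM with MGT, against 246, 134 and 242 TPM with DsRed and was lower only without DsRed replicate 2 (log2 -0.40, adjusted p = 0.0013).

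Genes that build and turn over sarcomeres followed, with 14 of 19 higher and none lower with all libraries, and 13 higher and 1 lower without DsRed replicate 2. Lmod2, a leiomodin that nucleates thin filaments, had 70.7, 73.6 and 66.1 TPM with MGT, against 0.966, 0.632 and 0.366 TPM with DsRed. Lmod2 differed by log2 5.44 ± 0.17 (adjusted p = 4.57e-08), and by 5.44 ± 0.17 without DsRed 2. Smpx, a small protein of striated muscle, had 97.7, 109 and 112 TPM with MGT, against 2.09, 1.30 and 0.798 TPM with DsRed. Smpx differed by log2 5.52 ± 0.19 (adjusted p = 7.9e-08), and by 5.50 ± 0.20 without DsRed 2. Trim63, the ubiquitin ligase MuRF1, had 8.12, 8.85 and 8.39 TPM with MGT, against 0.543, 0.352 and 1.37 TPM with DsRed (log2 2.47 ± 0.22, adjusted p = 6.18e-05, and 2.30 ± 0.18 without DsRed 2). Each of these was nearly silent in the controls. Among small heat shock proteins, Hspb7 had 336, 331 and 334 TPM with MGT, against 50.1, 49.9 and 67.6 TPM with DsRed. Hspb7 differed by log2 2.57 ± 0.13 (adjusted p = 9.66e-07), and by 2.50 ± 0.11 without DsRed 2. Cryab had 2522, 2612 and 2572 TPM with MGT, against 1068, 1539 and 1219.9 TPM with DsRed (log2 1.03 ± 0.13, adjusted p = 0.00052, and 1.17 ± 0.06 without DsRed 2), and its highest DsRed library, replicate 2, still lay below every MGT library. Bag3, a co-chaperone that clears damaged filament proteins, had 108, 106 and 111 TPM with MGT, against 100.3, 80.2 and 102 TPM with DsRed and was not called in either fit (adjusted p = 0.299 with all libraries and 0.199 without DsRed replicate 2). The call of the methyltransferase gene Smyd1 was lost in every fit that left out 1 library.

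**Figure D2:**
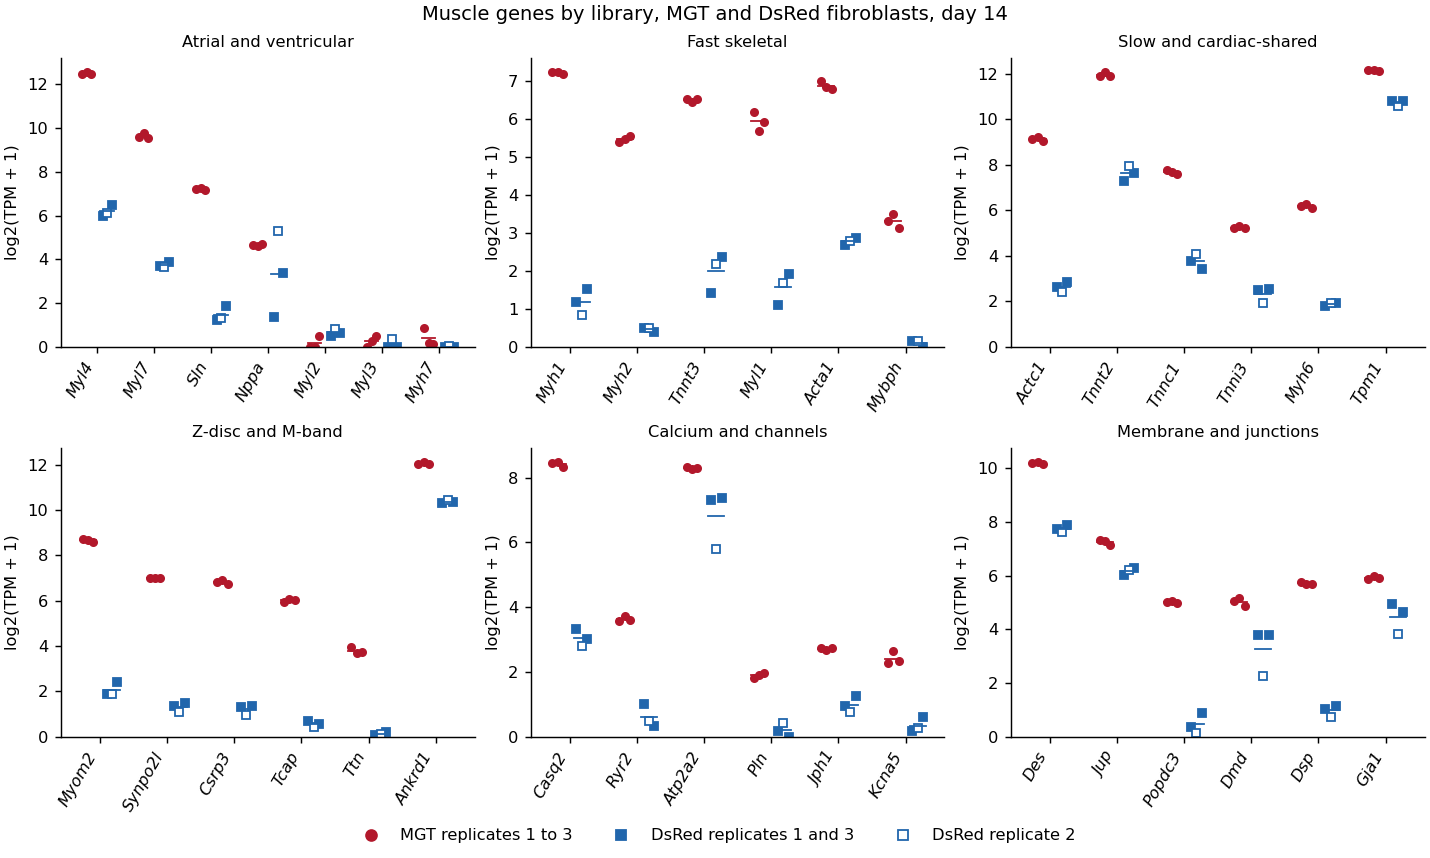
TPM on a log2(TPM + 1) axis in each library for muscle genes in 6 panels by role, with MGT libraries as circles on the left and DsRed libraries as squares on the right of each gene, DsRed replicate 2 open, and bars at the means of the log2 values. Apart from Nppa, the atrial, fast skeletal, Z-disc and calcium genes drawn separate fully between groups, while the ventricular genes Myl2, Myl3 and Myh7 stay near 0 in both.

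Promoters of the genes with the largest rises were read for short sequence motifs, since many of these genes moved together. RefSeq windows (build GRCm38.p6, from 250 bases before to 50 bases after the annotated start) were available for 29 of the 40 genes with the largest rises, and 5 of these held a match to the MEF2 motif: Casq2, Mybpc3, Myoz2, Myh1 and Synpo2l. The windows of 4 of them are shown, 5′ to 3′ on the gene's strand, with the MEF2 match in capitals. Mybpc3 (chr2:91117894-91118193, plus strand) holds it 90 bases before the start, Casq2 (chr3:102086165-102086464, plus strand) 69 bases before it, Myoz2 (chr3:123034938-123035237, minus strand) 33 bases before it and Myh1 (chr11:67199852-67200151, plus strand) 211 bases before it.
Mybpc3: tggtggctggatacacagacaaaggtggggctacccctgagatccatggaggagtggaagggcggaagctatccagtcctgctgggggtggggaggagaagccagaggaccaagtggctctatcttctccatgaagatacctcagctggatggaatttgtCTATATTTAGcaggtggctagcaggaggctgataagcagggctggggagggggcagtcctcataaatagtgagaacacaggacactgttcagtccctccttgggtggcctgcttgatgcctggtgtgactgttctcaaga
Casq2: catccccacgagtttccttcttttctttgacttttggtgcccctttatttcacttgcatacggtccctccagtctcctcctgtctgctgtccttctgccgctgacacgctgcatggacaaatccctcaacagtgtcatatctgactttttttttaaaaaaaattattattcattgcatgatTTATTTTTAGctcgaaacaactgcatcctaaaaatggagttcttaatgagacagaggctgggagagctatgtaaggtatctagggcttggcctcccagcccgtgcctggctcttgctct
Myoz2: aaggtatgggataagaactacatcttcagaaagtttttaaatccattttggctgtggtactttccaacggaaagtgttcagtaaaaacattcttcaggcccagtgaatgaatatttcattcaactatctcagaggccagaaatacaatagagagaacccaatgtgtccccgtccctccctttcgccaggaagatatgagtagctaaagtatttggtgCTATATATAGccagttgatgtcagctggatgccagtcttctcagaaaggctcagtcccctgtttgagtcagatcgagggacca
Myh1: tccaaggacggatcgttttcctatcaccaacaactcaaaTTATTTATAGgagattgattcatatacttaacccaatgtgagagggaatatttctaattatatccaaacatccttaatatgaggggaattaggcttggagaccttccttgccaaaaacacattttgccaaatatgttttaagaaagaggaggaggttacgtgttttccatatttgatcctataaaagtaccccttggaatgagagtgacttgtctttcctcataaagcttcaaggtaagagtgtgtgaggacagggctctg

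The MEF2 motif, searched on both strands and named only because some of its positions allow several bases, was found for 15.7% of genes that were higher in both fits by a log2 fold change of at least 3 (11 of 70 genes with a window). A gene can have several windows and was counted when at least 1 of them held the motif. The share was 2.1% of all tested genes with a window (203 of 9679), 3.79% of all genes higher in both fits and 3.23% of genes lower in both fits. The GATA motif, AGATAA on either strand, where the first letter may also be T and the last may also be G, was found for 41.4% of the genes with large rises (29 of 70), 22.2% of all tested genes and 26.1% of genes lower in both fits. The T-box half-site AGGTGT, on either strand, was found for 11.4% of the genes with large rises (8 of 70) and 12.8% of all tested genes. The CArG box, bound by serum response factor and also named only, was found for 5.71% (4 of 70) of the genes with large rises and 1.63% of all tested genes. TATAAA on the gene's strand was found for 10% of the genes with large rises and 5.36% of all tested genes. Over all 32851 RefSeq windows, tested or not, the GATA motif was in 29.8%, MEF2 in 3.19% and TATAAA in 8.32%. The T-box half-site was in 13.7% and the CArG box in 1.63% of them. These shares count windows and not genes. MEF2 matches can overlap a TATA match: 124 of the 272 windows in the RefSeq table that hold both have them overlapping. None of the MEF2 matches in the 4 windows shown overlaps TATAAA. Only that exact string was searched, so TATA-like variants, such as can be read in the Myoz2 match, were not counted. Besides those named, the genes with large rises and a MEF2 match were Ccdc141, Clic5, Lmo7, Mal, Ttn and Xirp2. A match is a description of the sequence in this window and not evidence of binding.

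**Figure D3:**
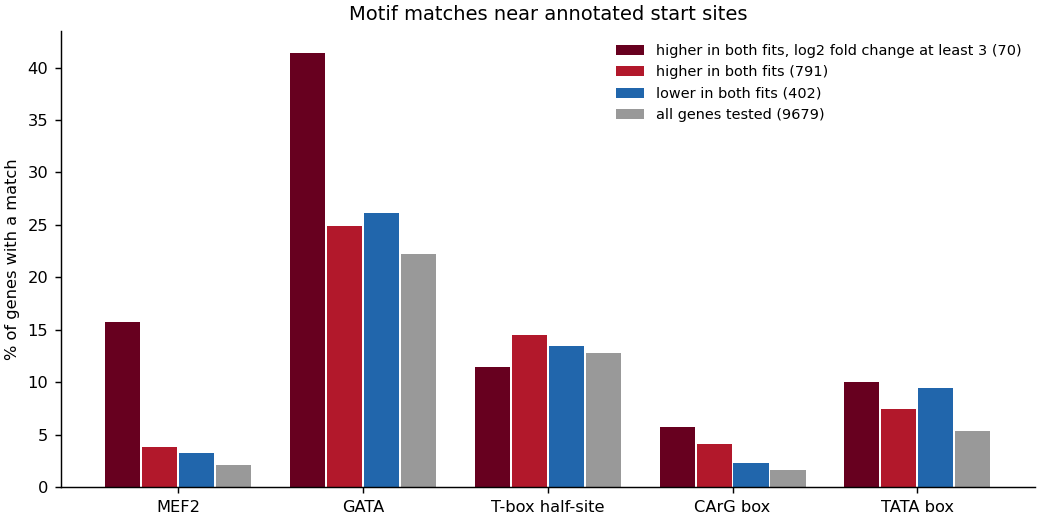
Percent of genes with a RefSeq promoter window that hold each motif in at least 1 window, for genes higher in both fits with a log2 fold change of at least 3, all genes higher in both fits, genes lower in both fits and all genes tested. The MEF2 and GATA bars are tallest for the genes with large rises (15.7% and 41.4%), against 2.1% and 22.2% over all genes tested.

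Excitation-contraction coupling genes, which link membrane depolarisation to calcium release, gave 17 rises and no fall among 26 tested, with and without DsRed replicate 2; 15 genes were called in both fits. The count was 11 without MGT replicate 1 or MGT replicate 2. Casq2, which buffers calcium in the cardiac sarcoplasmic reticulum, had 352, 358 and 318 TPM with MGT, against 9.04, 5.92 and 7.20 TPM with DsRed. Casq2 differed by log2 5.37 ± 0.14 (adjusted p = 1.67e-08), and by 5.24 ± 0.10 without DsRed 2. Ryr2, the cardiac calcium release channel, had 10.8, 12.3 and 11.2 TPM with MGT, against 1.04, 0.400 and 0.258 TPM with DsRed (log2 3.02 ± 0.21, adjusted p = 9.83e-06, and 2.96 ± 0.20 without DsRed 2). Trdn, triadin, which ties the release channel to calsequestrin, had 14.1, 18.8 and 17.4 TPM with MGT, against 1.24, 3.77 and 2.05 TPM with DsRed. Trdn differed by log2 2.47 ± 0.26 (adjusted p = 0.000179), and by 2.76 ± 0.17 without DsRed 2. All MGT libraries exceeded all DsRed libraries in the 3 genes. Jph1, a junctophilin that holds the membranes of the junction together, had 5.65, 5.36 and 5.74 TPM with MGT, against 0.944, 0.716 and 1.39 TPM with DsRed. Jph1 differed by log2 1.72 ± 0.18 (adjusted p = 0.000174), and by 1.61 ± 0.13 without DsRed 2. Cav3, the muscle caveolin, had 10.9, 13.7 and 13.3 TPM with MGT, against 2.03, 2.27 and 2.04 TPM with DsRed (log2 2.12 ± 0.18, adjusted p = 4.58e-05, and 2.16 ± 0.16 without DsRed 2). Camk2a, a calcium and calmodulin dependent kinase better known from neurons, had 21.7, 20.1 and 19.5 TPM with MGT, against 2.54, 1.80 and 4.13 TPM with DsRed. Camk2a differed by log2 2.53 ± 0.21 (adjusted p = 4.17e-05), and by 2.33 ± 0.15 without DsRed 2. Pln, phospholamban, rose to 2.53, 2.77 and 2.90 TPM with MGT, against 0.138, 0.353 and 0 TPM with DsRed, and so was still below 3 TPM. The calcium pump gene Atp2a2 had 323, 308 and 311 TPM with MGT, against 159, 54.3 and 165 TPM with DsRed, with DsRed replicate 2 far below its partners, and its call (log2 1.47 ± 0.35, adjusted p = 0.0237, and 0.95 ± 0.06, adjusted p = 1.81e-05, without DsRed 2) was lost in fits without any 1 MGT library. Ryr1 and Cacna1s, the release channel and calcium channel of skeletal muscle, stayed under 1 TPM in every library.

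Ion channels and channel regulators outside the lists were among the largest rises. Rrad, a small GTPase that restrains L-type calcium channels, had 239.5, 247 and 242 TPM with MGT, against 5.82, 2.78 and 7.88 TPM with DsRed. Rrad differed by log2 5.32 ± 0.26 (adjusted p = 9.66e-07), and by 4.97 ± 0.11 without DsRed 2. Nalcn, a sodium leak channel, had 55.9, 57.0 and 55.1 TPM with MGT, against 0.602, 0.322 and 0.479 TPM with DsRed (log2 5.28 ± 0.14, adjusted p = 1.67e-08, and 5.21 ± 0.09 without DsRed 2). Kcnc4, a fast voltage-gated potassium channel, had 52.3, 53.8 and 51.5 TPM with MGT, against 0.264, 0.324 and 0.750 TPM with DsRed. Kcnc4 differed by log2 5.22 ± 0.16 (adjusted p = 3.32e-08), and by 5.17 ± 0.14 without DsRed 2. The controls were below 1 TPM for Nalcn and Kcnc4. Of 10 tested potassium and sodium channel genes in the list, 5 were higher and 1 lower with all libraries, and 5 were higher and 2 lower without DsRed replicate 2; only 2 were higher without MGT replicate 3.

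The dystrophin complex and costamere, which couple the contractile apparatus to the membrane and the matrix, gave 15 rises and no fall among 24 tested with all libraries, and 18 rises and 2 falls without DsRed replicate 2. Popdc3, a membrane protein of the cAMP-binding Popeye family, had 31.3, 31.8 and 30.7 TPM with MGT, against 0.277, 0.114 and 0.843 TPM with DsRed. Popdc3 differed by log2 4.55 ± 0.21 (adjusted p = 6.61e-07), and by 4.39 ± 0.17 without DsRed 2. Des, desmin, the muscle intermediate filament, had 1157, 1204 and 1137 TPM with MGT, against 212, 193 and 237 TPM with DsRed. Des differed by log2 2.44 ± 0.10 (adjusted p = 2.09e-07), and by 2.37 ± 0.05 without DsRed 2. The groups did not overlap in either gene. Itga7, the laminin receptor of muscle, had 107, 102 and 105 TPM with MGT, against 30.9, 60.8 and 45.1 TPM with DsRed (log2 1.23 ± 0.20, adjusted p = 0.00318, and 1.46 ± 0.14 without DsRed 2), with DsRed replicate 2 the highest control, and its call was lost after removal of the length trend (adjusted p = 0.0733). Dmd, dystrophin, had 31.9, 35.0 and 28.2 TPM with MGT, against 12.7, 3.84 and 12.8 TPM with DsRed (log2 1.75 ± 0.35, adjusted p = 0.0101, and 1.24 ± 0.10 without DsRed 2), with DsRed replicate 2 the lowest control. Vcl and Tln1, vinculin and talin of focal adhesions, were not called with all libraries (log2 0.01 and 0.46). Without DsRed replicate 2, Vcl was lower (log2 -0.56, adjusted p = 0.000212) and Tln1 was not called (log2 0.02, adjusted p = 0.87).

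Intercalated disc genes, which join cardiomyocytes end to end, changed unevenly, with 6 rises and 1 fall among 13 tested with all libraries and 7 rises and 3 falls without DsRed replicate 2; 4 were higher without any 1 MGT library. Dsp, desmoplakin, had 53.3, 50.9 and 50.6 TPM with MGT, against 1.06, 0.672 and 1.24 TPM with DsRed (log2 4.73 ± 0.16, adjusted p = 6.56e-08, and 4.61 ± 0.11 without DsRed 2). Jup, plakoglobin, had 158, 156 and 140.3 TPM with MGT, against 63.6, 72.0 and 77.4 TPM with DsRed. Jup differed by log2 1.08 ± 0.11 (adjusted p = 0.000175), and by 1.10 ± 0.10 without DsRed 2. Gja1, connexin 43, had 56.9, 62.2 and 59.4 TPM with MGT, against 29.6, 13.3 and 24.1 TPM with DsRed. Gja1 differed by log2 1.44 ± 0.24 (adjusted p = 0.00322), and by 1.12 ± 0.09 without DsRed 2. The MGT libraries lay above all controls for each. Cdh2, the cadherin of the disc, was not called in either fit and had 107, 106 and 111 TPM with MGT, against 119, 54.8 and 109 TPM with DsRed. Cxadr, a tight junction protein of the disc, fell to 4.82, 5.45 and 4.83 TPM with MGT, against 22.4, 8.83 and 20.5 TPM with DsRed (log2 -1.50 ± 0.30, adjusted p = 0.0096, and -1.90 ± 0.12 without DsRed 2). The desmosomal genes Dsg2 and Dsc2 did not pass the filter on low values.

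Energy metabolism gave few calls beside the contractile genes. None of 45 tested genes of the respiratory chain and ATP synthase was called with all libraries by limma (2 were higher and 1 lower at an unadjusted p under 0.05); 7 were higher and none lower without DsRed replicate 2, against a background of 12.5% higher, and their median log2 fold change changed sign between the fits. Muscle isoforms of glycolysis did rise: Pgam2, the muscle phosphoglycerate mutase, had 70.7, 68.8 and 66.8 TPM with MGT, against 10.7, 21.8 and 20.6 TPM with DsRed (log2 1.96 ± 0.22, adjusted p = 0.000327, and 2.13 ± 0.21 without DsRed 2), and Eno3, the muscle enolase, had 78.9, 70.0 and 83.8 TPM with MGT, against 25.2, 20.2 and 32.5 TPM with DsRed. Eno3 differed by log2 1.56 ± 0.17 (adjusted p = 0.000233), and by 1.40 ± 0.13 without DsRed 2. Fabp3, the heart fatty acid carrier, had 54.6, 47.7 and 50.6 TPM with MGT, against 11.9, 14.4 and 12.8 TPM with DsRed. Fabp3 differed by log2 1.89 ± 0.12 (adjusted p = 6.63e-06), and by 1.96 ± 0.08 without DsRed 2. Ckm and Ckmt2, the muscle creatine kinases, stayed under 1 TPM or at 0 in every library. Slc16a1, a lactate carrier, had 17.7, 18.1 and 18.6 TPM with MGT, against 5.88, 3.42 and 5.70 TPM with DsRed (log2 1.70 ± 0.19, adjusted p = 0.000258, and 1.49 ± 0.09 without DsRed 2). Hk2 and Pfkp, a hexokinase and a phosphofructokinase, were also higher (log2 0.82 with all libraries and 0.80 without DsRed 2 for Hk2, and 1.07 with all libraries and 1.09 without DsRed 2 for Pfkp). Tpi1, triosephosphate isomerase, was lower (log2 -0.50 ± 0.10, adjusted p = 0.00812, and -0.57 ± 0.06, adjusted p = 0.000221, without DsRed 2), and its call was lost with only the 6 compared libraries in the fit (adjusted p = 0.0564). Of 20 glycolysis genes, 3 were higher and 4 lower with all libraries, and 3 were higher and 9 lower without DsRed replicate 2; without MGT replicate 1 or 2 only 1 was lower. Of 21 genes of fatty acid uptake and oxidation, 3 were higher and none lower with all libraries, and 4 were higher and 2 lower, Lpl and Cpt1a, without DsRed replicate 2. Acadl and Acaa2 were higher in both fits (log2 0.94 with all libraries and 0.83 without DsRed 2 for Acadl, and 0.62 with all libraries and 0.65 without DsRed 2 for Acaa2). The call of Acaa2 was lost after median-ratio scaling (adjusted p = 0.0593), and the call of Acsl1 was lost without MGT replicate 1, MGT replicate 3 or DsRed replicate 1. Of 16 genes of the tricarboxylic acid cycle, the 2 called higher, Idh3a and Pdhx, were not called without MGT replicate 1 or 2, and 4 were higher and none lower without DsRed replicate 2. Over all genes tested, 8.14% were higher with all libraries and 12.5% without DsRed replicate 2. Ppp1r3c, which targets a phosphatase to glycogen, had 51.0, 50.9 and 47.0 TPM with MGT, against 1.18, 0.995 and 1.29 TPM with DsRed (log2 4.56 ± 0.12, adjusted p = 1.67e-08, and 4.50 ± 0.07 without DsRed 2), while Stbd1, which tethers glycogen to membranes, fell to 24.3, 27.0 and 28.0 TPM with MGT, against 127, 111 and 123 TPM with DsRed. Stbd1 differed by log2 -2.15 ± 0.12 (adjusted p = 1.82e-06), and by -2.20 ± 0.09 without DsRed 2.

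Regulators of heart and muscle genes were called in both directions. Among 17 tested cardiac regulators, 5 were higher and 2 lower with all libraries, and 4 were higher and 6 lower without DsRed replicate 2; 3 were higher without MGT replicate 2 or 3. Smarcd3, a chromatin remodelling subunit of the heart, had 149, 140.2 and 133 TPM with MGT, against 43.1, 53.9 and 50.9 TPM with DsRed. Smarcd3 differed by log2 1.50 ± 0.11 (adjusted p = 2.04e-05), and by 1.57 ± 0.08 without DsRed 2. Hopx, a homeodomain-only cofactor, had 2.63, 4.02 and 1.99 TPM with MGT, against 0.626, 0.506 and 0.712 TPM with DsRed (log2 1.23 ± 0.25, adjusted p = 0.0106, and 1.19 ± 0.27 without DsRed 2). Meis1, a homeodomain factor that restrains cardiomyocyte division, fell to 7.61, 9.77 and 9.23 TPM with MGT, against 25.2, 16.6 and 23.5 TPM with DsRed. Meis1 differed by log2 -1.19 ± 0.18 (adjusted p = 0.00215), and by -1.37 ± 0.12 without DsRed 2. Smarcd3 was the most abundant of the 3, and its groups did not overlap. Nkx2-5, a core cardiac factor, was at 0.211, 1.04 and 0.646 TPM with MGT and 0.432, 0.747 and 0.140 TPM with DsRed and was not tested. Outside the list, Klf5, a Krüppel-like factor, had 15.8, 15.9 and 16.1 TPM with MGT, against 1.13, 1.15 and 1.24 TPM with DsRed. Klf5 differed by log2 2.96 ± 0.14 (adjusted p = 8.69e-07), and by 2.96 ± 0.09 without DsRed 2. Of 16 muscle splicing and RNA-binding regulators, 2 were higher and none lower with all libraries, and 3 were higher and 3 lower without DsRed replicate 2. Over all genes tested, 8.14% were higher and 4.18% lower, and 12.5% and 13.8% without that library. Rbm20, which controls titin splicing, had 11.5, 12.4 and 12.1 TPM with MGT, against 0.909, 0.340 and 1.16 TPM with DsRed (log2 2.88 ± 0.20, adjusted p = 1.06e-05, and 2.68 ± 0.11 without DsRed 2), and Rbm24 had 7.70, 4.66 and 5.08 TPM with MGT, against 0.0397, 0.344 and 0.194 TPM with DsRed (log2 2.50 ± 0.24, adjusted p = 0.000112, and 2.59 ± 0.24 without DsRed 2). Of 8 genes reported as barriers to this conversion, only Snai1 was called with all libraries, and Snai1 and Bmi1 were lower without DsRed replicate 2. Snai1 fell to 34.6, 28.5 and 34.2 TPM with MGT, against 59.3, 49.7 and 71.9 TPM with DsRed. Snai1 differed by log2 -0.86 ± 0.16 (adjusted p = 0.00567), and by -0.99 ± 0.12 without DsRed 2.

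Fibroblast and matrix genes moved in both directions and depended more on DsRed replicate 2. Of 126 tested genes in 6 lists, 17 were higher and 34 lower with all libraries, and 24 were higher and 62 lower without DsRed replicate 2. Their median log2 fold change was -0.10 with that library and -0.36 without it. They held 1 of the 40 largest rises, Col10a1, and 6 of the 40 largest falls.

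Identity genes of cardiac fibroblasts gave 12 falls and 1 rise among 24 tested with all libraries, and 15 falls and 3 rises without DsRed replicate 2. Tcf21, a defining transcription factor of these cells, was abundant in the controls and had 169, 208 and 169 TPM with MGT, against 439, 481 and 526 TPM with DsRed. Tcf21 differed by log2 -1.40 ± 0.12 (adjusted p = 3.54e-05), and by -1.40 ± 0.11 without DsRed 2. Col3a1, a fibrillar collagen chain, had 803, 667 and 791 TPM with MGT, against 2998, 1682 and 3270.4 TPM with DsRed (log2 -1.76 ± 0.24, adjusted p = 0.000858, and -2.06 ± 0.13 without DsRed 2). Fbln2, a matrix glycoprotein, had 785, 738 and 766 TPM with MGT, against 2199, 1751 and 2388 TPM with DsRed. Fbln2 differed by log2 -1.46 ± 0.12 (adjusted p = 3.01e-05), and by -1.59 ± 0.05 without DsRed 2. The lowest control still lay above every MGT library in these genes. Lum, lumican, a proteoglycan that spaces collagen fibrils, had 3.19, 3.17 and 3.08 TPM with MGT, against 29.7, 17.4 and 26.0 TPM with DsRed. Lum differed by log2 -2.58 ± 0.26 (adjusted p = 0.000144), and by -2.80 ± 0.23 without DsRed 2. Fn1, fibronectin, had 3166, 3154 and 2949 TPM with MGT, against 6304, 4075 and 6819 TPM with DsRed (log2 -0.86 ± 0.17, adjusted p = 0.00895, and -1.09 ± 0.05 without DsRed 2). Dpep1, a membrane dipeptidase, had 37.7, 36.6 and 38.3 TPM with MGT, against 109, 73.0 and 141 TPM with DsRed. Dpep1 differed by log2 -1.44 ± 0.21 (adjusted p = 0.00163), and by -1.69 ± 0.12 without DsRed 2. All were lower in each MGT library. Thy1, a surface antigen of fibroblasts, went the other way, with 429, 448 and 459 TPM with MGT, against 195, 204 and 206 TPM with DsRed. Thy1 differed by log2 1.14 ± 0.09 (adjusted p = 2.27e-05), and by 1.14 ± 0.06 without DsRed 2. Col1a1 and Col1a2, the chains of type I collagen, were not called in either fit: Col1a1 had 3572, 3187 and 3409.6 TPM with MGT, against 3131, 1520.0 and 3469.7 TPM with DsRed, with DsRed replicates 1 and 3 close to the MGT libraries and DsRed replicate 2 far below them. The calls of Pdgfra, Ly6a and Mfap5 were each lost when MGT replicate 1, MGT replicate 3 or DsRed replicate 1 was left out. Those of Pdgfra and Ly6a were also lost without MGT replicate 2, and that of Pdgfra without DsRed replicate 3.

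Mesenchymal transcription factors gave 7 falls and 1 rise among 21 tested with all libraries, and 11 falls and 2 rises without DsRed replicate 2. Twist1, a factor of mesenchymal identity, had 8.42, 11.4 and 12.7 TPM with MGT, against 28.8, 24.4 and 30.1 TPM with DsRed (log2 -1.29 ± 0.17, adjusted p = 0.000849, and -1.38 ± 0.15 without DsRed 2). Osr1, a factor of fibrogenic progenitors, had 5.87, 5.66 and 4.59 TPM with MGT, against 17.5, 15.2 and 18.3 TPM with DsRed. Osr1 differed by log2 -1.50 ± 0.17 (adjusted p = 0.000282), and by -1.57 ± 0.14 without DsRed 2. Sox9, a factor of cartilage and matrix genes, had 4.62, 5.58 and 5.33 TPM with MGT, against 14.5, 12.5 and 14.3 TPM with DsRed. Sox9 differed by log2 -1.26 ± 0.17 (adjusted p = 0.000829), and by -1.32 ± 0.14 without DsRed 2. The groups did not overlap. Hoxa5, a positional homeobox gene, had 2.50, 1.03 and 1.98 TPM with MGT, against 11.1, 9.99 and 9.58 TPM with DsRed (log2 -2.02 ± 0.24, adjusted p = 0.000401, and -2.03 ± 0.25 without DsRed 2). Tbx18, a factor of the epicardium and the sinus region, was the rise, with 45.1, 46.1 and 45.4 TPM with MGT, against 22.9, 12.3 and 20.0 TPM with DsRed. Tbx18 differed by log2 1.30 ± 0.20 (adjusted p = 0.00189), and by 1.05 ± 0.08 without DsRed 2.

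Collagens were split, with 6 rises and 4 falls among 26 tested with all libraries and 7 rises and 10 falls without DsRed replicate 2; 2 were lower without MGT replicate 1 or 3. Col10a1, the collagen of hypertrophic cartilage, had 149.6, 129 and 136 TPM with MGT, against 0.898, 0.541 and 1.14 TPM with DsRed. Col10a1 differed by log2 6.24 ± 0.15 (adjusted p = 1.09e-08), and by 6.11 ± 0.09 without DsRed 2. Col4a3 had 12.6, 13.3 and 16.4 TPM with MGT, against 0.705, 0.166 and 0.434 TPM with DsRed (log2 3.41 ± 0.22, adjusted p = 7.23e-06, and 3.26 ± 0.19 without DsRed 2), and Col4a4, with which it forms the same basement membrane network, had 7.86, 7.57 and 6.47 TPM with MGT, against 0.312, 0.154 and 0.385 TPM with DsRed (log2 2.69 ± 0.18, adjusted p = 8.59e-06, and 2.62 ± 0.15 without DsRed 2). These 3 genes were near or below 1 TPM in the controls. Col6a3, a microfibrillar chain, had 140.4, 146 and 131 TPM with MGT, against 27.5, 18.3 and 35.3 TPM with DsRed (log2 2.36 ± 0.21, adjusted p = 5.46e-05, and 2.12 ± 0.11 without DsRed 2), while its partner chain Col6a1 was lower only without DsRed replicate 2 (log2 -0.91, adjusted p = 7.43e-05). Col15a1, of muscle basement membranes, had 53.1, 60.1 and 50.2 TPM with MGT, against 9.93, 5.92 and 11.9 TPM with DsRed. Col15a1 differed by log2 2.48 ± 0.23 (adjusted p = 9.02e-05), and by 2.22 ± 0.14 without DsRed 2. Col14a1, which binds fibrils, fell to 27.5, 22.1 and 26.1 TPM with MGT, against 99.2, 56.4 and 97.2 TPM with DsRed. Col14a1 differed by log2 -1.66 ± 0.21 (adjusted p = 0.000597), and by -1.93 ± 0.10 without DsRed 2. The fall of Col16a1 was lost without MGT replicate 1 or 3. That of Col8a1 was lost without any 1 MGT library, DsRed replicate 1 or DsRed replicate 3. Outside the list, Nid2, nidogen 2, which links laminin and type IV collagen networks, had 1225, 1271 and 1134 TPM with MGT, against 54.9, 39.5 and 55.8 TPM with DsRed (log2 4.58 ± 0.14, adjusted p = 2.97e-08, and 4.42 ± 0.06 without DsRed 2), the highest absolute level among the largest rises that are not muscle genes.

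Matrix proteases and their inhibitors gave 10 falls and 4 rises among 26 tested with all libraries, and 18 falls and 4 rises without DsRed replicate 2; 6 were lower without MGT replicate 1 or 3. Mmp2, gelatinase A, had 198, 189 and 174 TPM with MGT, against 586, 719.9 and 682 TPM with DsRed (log2 -1.82 ± 0.12, adjusted p = 6.75e-06, and -1.75 ± 0.10 without DsRed 2). Mmp3, stromelysin 1, had 23.0, 31.4 and 27.8 TPM with MGT, against 164, 143 and 181 TPM with DsRed (log2 -2.53 ± 0.21, adjusted p = 3.55e-05, and -2.62 ± 0.22 without DsRed 2), and Mmp10, stromelysin 2, had 5.12, 4.89 and 5.48 TPM with MGT, against 32.4, 27.0 and 37.7 TPM with DsRed. Mmp10 differed by log2 -2.42 ± 0.19 (adjusted p = 2.47e-05), and by -2.55 ± 0.16 without DsRed 2. All 3 were lower in every MGT library, and DsRed replicate 2 lay among its partners or close to them. The inhibitors Timp1 and Timp3 fell as well, Timp1 to 616, 608 and 692 TPM with MGT, against 1130.2, 1634 and 1269.7 TPM with DsRed. Timp1 differed by log2 -1.06 ± 0.14 (adjusted p = 0.000648), and by -0.91 ± 0.08 without DsRed 2. Adamts8, an aggrecanase-related protease of muscle and lung, rose, with 83.1, 79.3 and 77.3 TPM with MGT, against 5.94, 2.84 and 5.71 TPM with DsRed (log2 3.84 ± 0.22, adjusted p = 3.22e-06, and 3.57 ± 0.09 without DsRed 2). Serpine2, protease nexin 1, had 749.9, 700.2 and 679 TPM with MGT, against 178, 146 and 207 TPM with DsRed. Serpine2 differed by log2 2.01 ± 0.13 (adjusted p = 6.47e-06), and by 1.88 ± 0.08 without DsRed 2.

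Elastic fibre and matricellular genes gave 5 rises and 8 falls among 28 tested with all libraries, and 5 rises and 14 falls without DsRed replicate 2; 4 were lower without MGT replicate 1. Eln, elastin, had 104, 102 and 112 TPM with MGT, against 764, 259 and 536 TPM with DsRed. Eln differed by log2 -2.15 ± 0.32 (adjusted p = 0.00163), and by -2.58 ± 0.15 without DsRed 2. Tnc, tenascin C, a protein of healing tissue, had 25.2, 23.0 and 25.9 TPM with MGT, against 147, 60.8 and 166 TPM with DsRed (log2 -2.16 ± 0.32, adjusted p = 0.00148, and -2.61 ± 0.09 without DsRed 2). Smoc1, a calcium-binding matricellular protein, had 5.77, 4.68 and 5.14 TPM with MGT, against 33.1, 21.8 and 24.4 TPM with DsRed. Smoc1 differed by log2 -2.13 ± 0.21 (adjusted p = 0.000109), and by -2.25 ± 0.18 without DsRed 2. The lowest control of all 3 was DsRed replicate 2, which still exceeded each MGT library. Ltbp1, which stores latent TGF-beta in the matrix, rose, with 223, 220.4 and 226 TPM with MGT, against 32.3, 18.6 and 28.5 TPM with DsRed. Ltbp1 differed by log2 3.06 ± 0.18 (adjusted p = 3.36e-06), and by 2.84 ± 0.07 without DsRed 2. Efemp1, a fibulin, had 52.4, 56.5 and 55.9 TPM with MGT, against 17.1, 13.0 and 11.3 TPM with DsRed (log2 1.94 ± 0.15, adjusted p = 2.44e-05, and 1.91 ± 0.14 without DsRed 2). Sparc, an abundant collagen-binding protein, had 8609.6, 8790.0 and 8551 TPM with MGT, against 8630.1, 8241 and 8897 TPM with DsRed and was not called in either fit (log2 0.01 with all libraries and -0.02 without DsRed 2).

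**Figure D4:**
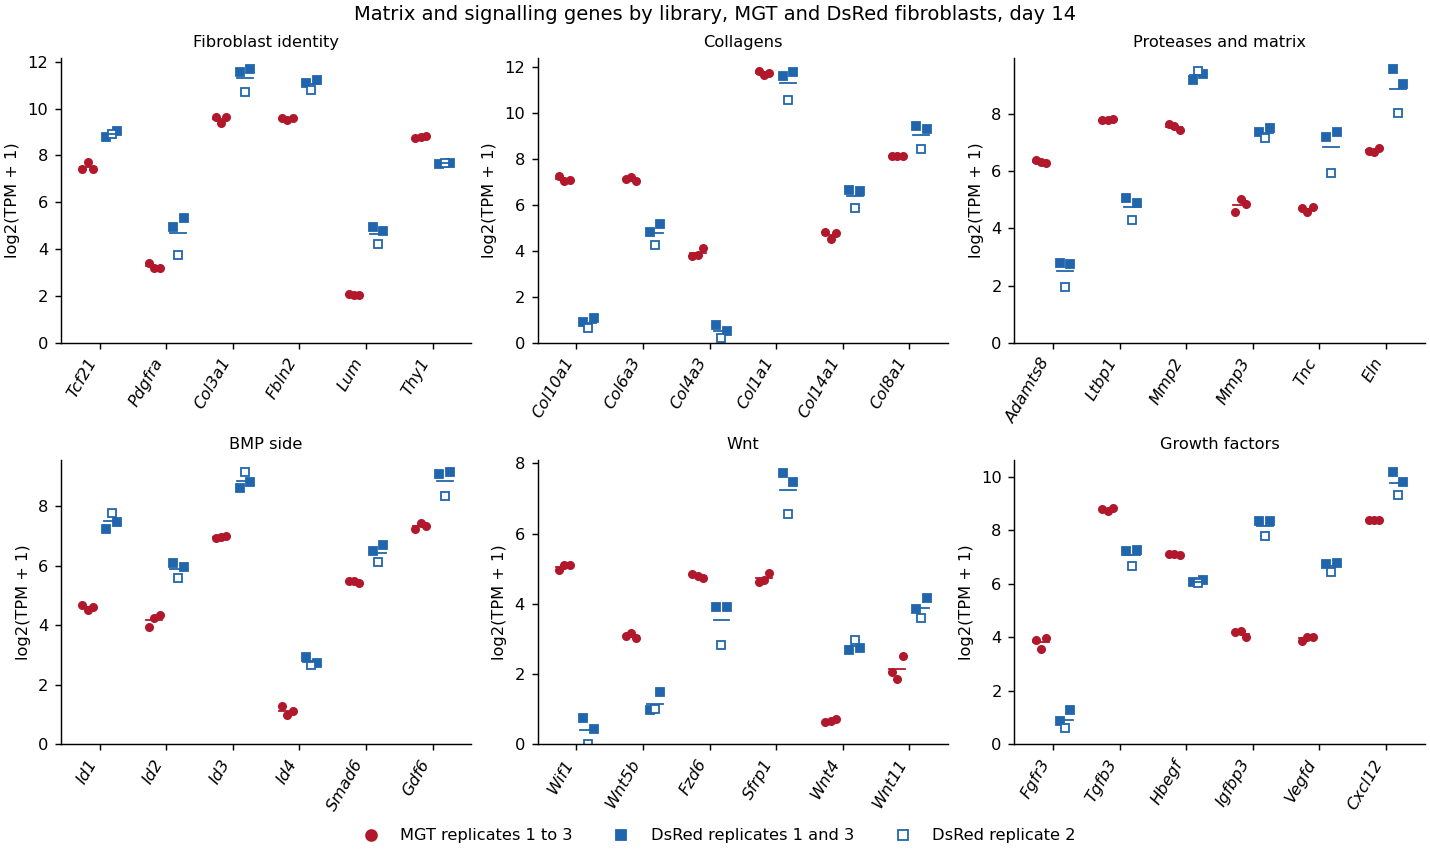
TPM on a log2(TPM + 1) axis in each library for fibroblast, matrix and signalling genes in 6 panels, with MGT libraries as circles on the left and DsRed libraries as squares on the right of each gene, DsRed replicate 2 open, and bars at the means of the log2 values. Falls such as Col3a1, Mmp3, Id1 and Wnt4 and rises such as Col10a1, Adamts8, Wif1 and Fgfr3 separate the groups, and open squares below their partners mark transcripts that were low in DsRed replicate 2.

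Among signalling pathways, the BMP list held more falls than rises, with the Id genes, transcription inhibitors that BMP signals induce, among the falls. Of 20 BMP and Id genes tested, 7 fell and 1 rose with all libraries, and 12 fell and 1 rose without DsRed replicate 2; the 7 falls were also the count in each of the other 5 fits that left out 1 library. Id1 had 24.5, 21.8 and 23.5 TPM with MGT, against 149.9, 217 and 176 TPM with DsRed. Id1 differed by log2 -2.89 ± 0.15 (adjusted p = 1.3e-06), and by -2.75 ± 0.10 without DsRed 2. Id2 had 14.3, 17.9 and 19.1 TPM with MGT, against 67.5, 47.5 and 61.9 TPM with DsRed (log2 -1.72 ± 0.17, adjusted p = 0.000124, and -1.87 ± 0.13 without DsRed 2), Id3 had 120.1, 125 and 128 TPM with MGT, against 389, 569 and 447 TPM with DsRed and Id4 had 1.43, 0.976 and 1.17 TPM with MGT, against 6.62, 5.39 and 5.68 TPM with DsRed. All 4 Id genes were lower in every MGT library than in any DsRed library (log2 -1.89 for Id3 and -1.65 for Id4). Smad6, the inhibitory Smad of this pathway, fell to 44.4, 43.5 and 42.3 TPM with MGT, against 89.8, 68.1 and 102 TPM with DsRed. Smad6 differed by log2 -0.96 ± 0.15 (adjusted p = 0.00216), and by -1.13 ± 0.08 without DsRed 2. The ligand gene Gdf6 had 152, 171 and 162 TPM with MGT, against 539, 327 and 573 TPM with DsRed (log2 -1.52 ± 0.19, adjusted p = 0.0006, and -1.78 ± 0.07 without DsRed 2). The antagonists divided: Nog, noggin, had 21.7, 20.1 and 20.7 TPM with MGT, against 9.26, 9.40 and 10.1 TPM with DsRed (log2 1.05 ± 0.14, adjusted p = 0.00082, and 1.03 ± 0.11 without DsRed 2), and Nbl1 had 49.3, 50.6 and 47.6 TPM with MGT, against 95.4, 99.7 and 115 TPM with DsRed. Nbl1 differed by log2 -1.05 ± 0.12 (adjusted p = 0.000263), and by -1.07 ± 0.10 without DsRed 2.

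On the TGF-beta and activin side, 5 of 23 tested genes were higher and 4 lower with all libraries, and 6 were higher and 7 lower without DsRed replicate 2; 3 were higher without MGT replicate 1 or 3. Tgfb2 had 150.2, 158 and 168 TPM with MGT, against 66.2, 35.8 and 68.0 TPM with DsRed (log2 1.52 ± 0.22, adjusted p = 0.00126, and 1.23 ± 0.07 without DsRed 2), and Tgfb3 had 444, 424 and 456 TPM with MGT, against 150.2, 101 and 151 TPM with DsRed. Tgfb3 differed by log2 1.73 ± 0.15 (adjusted p = 5.26e-05), and by 1.54 ± 0.05 without DsRed 2. Tgfb1 had 54.0, 52.6 and 59.2 TPM with MGT, against 43.5, 35.0 and 57.9 TPM with DsRed and was not called in either fit. The activin chains went opposite ways, Inhba with 163, 169 and 184 TPM with MGT, against 86.6, 79.5 and 87.4 TPM with DsRed (log2 1.02 ± 0.11, adjusted p = 0.000293, and 0.97 ± 0.10 without DsRed 2) and Inhbb with 11.9, 13.9 and 13.6 TPM with MGT, against 51.1, 31.1 and 55.3 TPM with DsRed (log2 -1.69 ± 0.20, adjusted p = 0.000462, and -1.94 ± 0.09 without DsRed 2). The receptor gene Tgfbr1 was called higher with all libraries but not without MGT replicate 1 or 3.

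Wnt genes gave 5 rises and 6 falls among 27 tested with all libraries, and 5 rises and 16 falls without DsRed replicate 2; 4 were lower without any 1 of the other libraries, and 3 were higher without MGT replicate 1 or 3. Wif1, a secreted Wnt inhibitor, had 30.1, 33.6 and 33.4 TPM with MGT, against 0.693, 0 and 0.359 TPM with DsRed. Wif1 differed by log2 4.66 ± 0.20 (adjusted p = 3.84e-07), and by 4.46 ± 0.11 without DsRed 2. Sfrp1, another secreted inhibitor, had 23.9, 24.5 and 28.7 TPM with MGT, against 211, 93.3 and 177 TPM with DsRed. Sfrp1 differed by log2 -2.52 ± 0.27 (adjusted p = 0.000186), and by -2.87 ± 0.13 without DsRed 2. The inhibitors therefore moved in opposite directions, each with no overlap between groups. Among ligands, Wnt4 had 0.564, 0.575 and 0.646 TPM with MGT, against 5.43, 6.86 and 5.70 TPM with DsRed (log2 -2.13 ± 0.21, adjusted p = 0.000127, and -2.04 ± 0.22 without DsRed 2), Wnt11 had 3.19, 2.63 and 4.72 TPM with MGT, against 13.4, 11.0 and 17.0 TPM with DsRed (log2 -1.72 ± 0.27, adjusted p = 0.00208, and -1.86 ± 0.27 without DsRed 2), and Wnt5b had 7.45, 7.95 and 7.16 TPM with MGT, against 0.986, 0.999 and 1.78 TPM with DsRed (log2 1.94 ± 0.19, adjusted p = 0.000112, and 1.86 ± 0.16 without DsRed 2). Axin2, a common target of canonical Wnt signals, was not called in either fit (log2 0.66 ± 0.22, adjusted p = 0.0897, and 0.63 ± 0.23, adjusted p = 0.0841, without DsRed 2).

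Growth factor systems held the largest fall among genes of at least 10 TPM. Igfbp3, a binding protein that holds insulin-like growth factors, had 17.2, 17.8 and 14.9 TPM with MGT, against 327, 218 and 324 TPM with DsRed. Igfbp3 differed by log2 -4.02 ± 0.18 (adjusted p = 5.19e-07), and by -4.22 ± 0.11 without DsRed 2. Igfbp2, a related binding protein, rose, with 1009, 1022 and 932 TPM with MGT, against 357, 690.0 and 475 TPM with DsRed (log2 1.01 ± 0.20, adjusted p = 0.00937, and 1.26 ± 0.12 without DsRed 2), and Igfbp6 fell, with 11.5, 9.44 and 8.21 TPM with MGT, against 24.3, 42.6 and 37.2 TPM with DsRed. Igfbp6 differed by log2 -1.71 ± 0.23 (adjusted p = 0.000989), and by -1.55 ± 0.22 without DsRed 2. Igfbp3 was the furthest apart of the 3, and the call of Igfbp2 was lost after median-ratio scaling (log2 0.89, adjusted p = 0.0872). Of the vascular growth factors, Vegfd had 13.5, 15.2 and 15.1 TPM with MGT, against 106, 86.3 and 109 TPM with DsRed (log2 -2.69 ± 0.15, adjusted p = 2.45e-06, and -2.80 ± 0.11 without DsRed 2), and Vegfc had 5.27, 6.78 and 8.12 TPM with MGT, against 22.5, 17.6 and 25.8 TPM with DsRed (log2 -1.58 ± 0.23, adjusted p = 0.0013, and -1.72 ± 0.21 without DsRed 2). Both act on lymphatic vessels, and both were lower in every MGT library. Vegfa had 96.6, 102 and 105 TPM with MGT, against 170.1, 92.5 and 205 TPM with DsRed and was lower only without DsRed replicate 2 (log2 -0.88, adjusted p = 0.000148). Fgfr3, a fibroblast growth factor receptor, had 13.8, 10.9 and 14.7 TPM with MGT, against 0.819, 0.521 and 1.44 TPM with DsRed (log2 2.89 ± 0.21, adjusted p = 1.64e-05, and 2.74 ± 0.17 without DsRed 2), Fgf1 had 8.50, 7.10 and 8.74 TPM with MGT, against 2.40, 0.785 and 2.12 TPM with DsRed (log2 1.77 ± 0.32, adjusted p = 0.00523, and 1.48 ± 0.27 without DsRed 2), and Hbegf, a ligand of the EGF receptor, had 137, 135 and 133 TPM with MGT, against 66.0, 64.6 and 68.7 TPM with DsRed. Hbegf differed by log2 1.01 ± 0.10 (adjusted p = 0.000125), and by 0.99 ± 0.07 without DsRed 2. Edn1, the endothelin 1 gene, fell to 5.72, 6.16 and 4.80 TPM with MGT, against 33.1, 22.6 and 28.5 TPM with DsRed. Edn1 differed by log2 -2.14 ± 0.19 (adjusted p = 5.76e-05), and by -2.28 ± 0.14 without DsRed 2.

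Hedgehog, Notch, guidance and retinoid lists held more falls without DsRed replicate 2, as did the genes tested as a whole (13.8%, against 4.18% with it). Gas1, a hedgehog co-receptor, had 3.55, 5.33 and 3.76 TPM with MGT, against 48.4, 26.7 and 52.9 TPM with DsRed (log2 -3.03 ± 0.27, adjusted p = 5.76e-05, and -3.32 ± 0.17 without DsRed 2) and was the only 1 of 7 hedgehog genes called with all libraries, against 4 lower without DsRed replicate 2. Of 13 Notch genes, 1 was lower with all libraries, Jag1, whose call was lost without MGT replicate 2 or 3, and 5 were lower without DsRed replicate 2. Of 27 guidance and adhesion genes, 2 were higher and 6 lower with all libraries, and 3 were higher and 15 lower without DsRed replicate 2, but only 1 was lower without MGT replicate 1. That gene was Ncam1, a neural adhesion molecule, with 32.4, 30.4 and 32.3 TPM with MGT, against 81.0, 47.9 and 84.5 TPM with DsRed (log2 -1.10 ± 0.20, adjusted p = 0.00593, and -1.36 ± 0.08 without DsRed 2). Cadm1, another adhesion molecule, rose, with 16.0, 13.9 and 16.3 TPM with MGT, against 4.67, 2.42 and 6.08 TPM with DsRed. Cadm1 differed by log2 1.67 ± 0.25 (adjusted p = 0.0018), and by 1.37 ± 0.14 without DsRed 2. Of 14 retinoid and steroid genes, 6 were lower and 1 higher with all libraries, and 10 were lower and 1 higher without DsRed replicate 2; 4 were lower without MGT replicate 1 or 3. Aldh1a2, which makes retinoic acid, had 23.4, 25.4 and 23.3 TPM with MGT, against 66.3, 39.1 and 60.0 TPM with DsRed (log2 -1.13 ± 0.19, adjusted p = 0.00359, and -1.36 ± 0.09 without DsRed 2), and Cyp26b1, which degrades it, had 14.5, 18.2 and 12.6 TPM with MGT, against 5.39, 2.50 and 7.27 TPM with DsRed (log2 1.49 ± 0.29, adjusted p = 0.00846, and 1.14 ± 0.17 without DsRed 2). The enzyme of synthesis was lower and that of degradation higher in every MGT library.

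Genes of division and of iron and glutathione handling gave smaller groups. Of 30 cell cycle genes, 1 was higher and 3 lower with all libraries, and 2 were higher and 12 lower without DsRed replicate 2. Over all genes tested, 8.14% were higher and 4.18% lower, and 12.5% and 13.8% without that library. Cenpa, a histone of the centromere, had 32.8, 30.4 and 28.8 TPM with MGT, against 7.96, 6.04 and 7.20 TPM with DsRed (log2 1.98 ± 0.14, adjusted p = 1.06e-05, and 1.88 ± 0.08 without DsRed 2), and Rrm1, a subunit of ribonucleotide reductase, had 48.2, 48.2 and 46.7 TPM with MGT, against 98.5, 82.7 and 95.7 TPM with DsRed. Rrm1 differed by log2 -0.93 ± 0.11 (adjusted p = 0.000419), and by -1.01 ± 0.06 without DsRed 2. Mki67, a marker of cycling cells, was at 1.31, 0.746 and 1.19 TPM with MGT and 3.31, 0.663 and 1.95 TPM with DsRed and passed only without DsRed replicate 2 (log2 -0.79, adjusted p = 0.0492). The inhibitor gene Cdkn2b had 95.9, 85.1 and 89.6 TPM with MGT, against 269, 274 and 272 TPM with DsRed. Cdkn2b differed by log2 -1.58 ± 0.10 (adjusted p = 8.41e-06), and by -1.58 ± 0.09 without DsRed 2. Of 27 antioxidant, metallothionein and iron genes, 1 was higher and 5 lower with all libraries, and 2 were higher and 7 lower without DsRed replicate 2. Gpx3, a secreted glutathione peroxidase, had 1653, 1671 and 1602 TPM with MGT, against 358, 398 and 459 TPM with DsRed (log2 2.02 ± 0.11, adjusted p = 1.54e-06, and 2.01 ± 0.10 without DsRed 2). Gsta4, Gstm1 and Mgst1, also of glutathione handling, were called lower with all libraries and in every fit that left out 1 library. Trf, transferrin, had 45.5, 51.4 and 48.2 TPM with MGT, against 275, 403 and 344 TPM with DsRed (log2 -2.77 ± 0.14, adjusted p = 1.46e-06, and -2.64 ± 0.10 without DsRed 2), and Cp, ceruloplasmin, which oxidises iron for transport, had 31.3, 27.9 and 33.1 TPM with MGT, against 163, 89.9 and 149 TPM with DsRed. Cp differed by log2 -2.04 ± 0.21 (adjusted p = 0.000168), and by -2.31 ± 0.11 without DsRed 2. The 2 iron proteins fell in every MGT library. Of 19 cholesterol synthesis genes tested, 2 were higher and none lower with all libraries, and 4 were higher and 1 lower without DsRed replicate 2. These few calls are read against the same shares over all genes tested. None of 46 cytosolic ribosomal protein genes was called by limma with all libraries (18 lower at an unadjusted p under 0.05). In the fit without DsRed replicate 2, 14 were lower and none higher, the largest shift being that of Rpl7 (log2 -0.31).

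**Figure D5:**
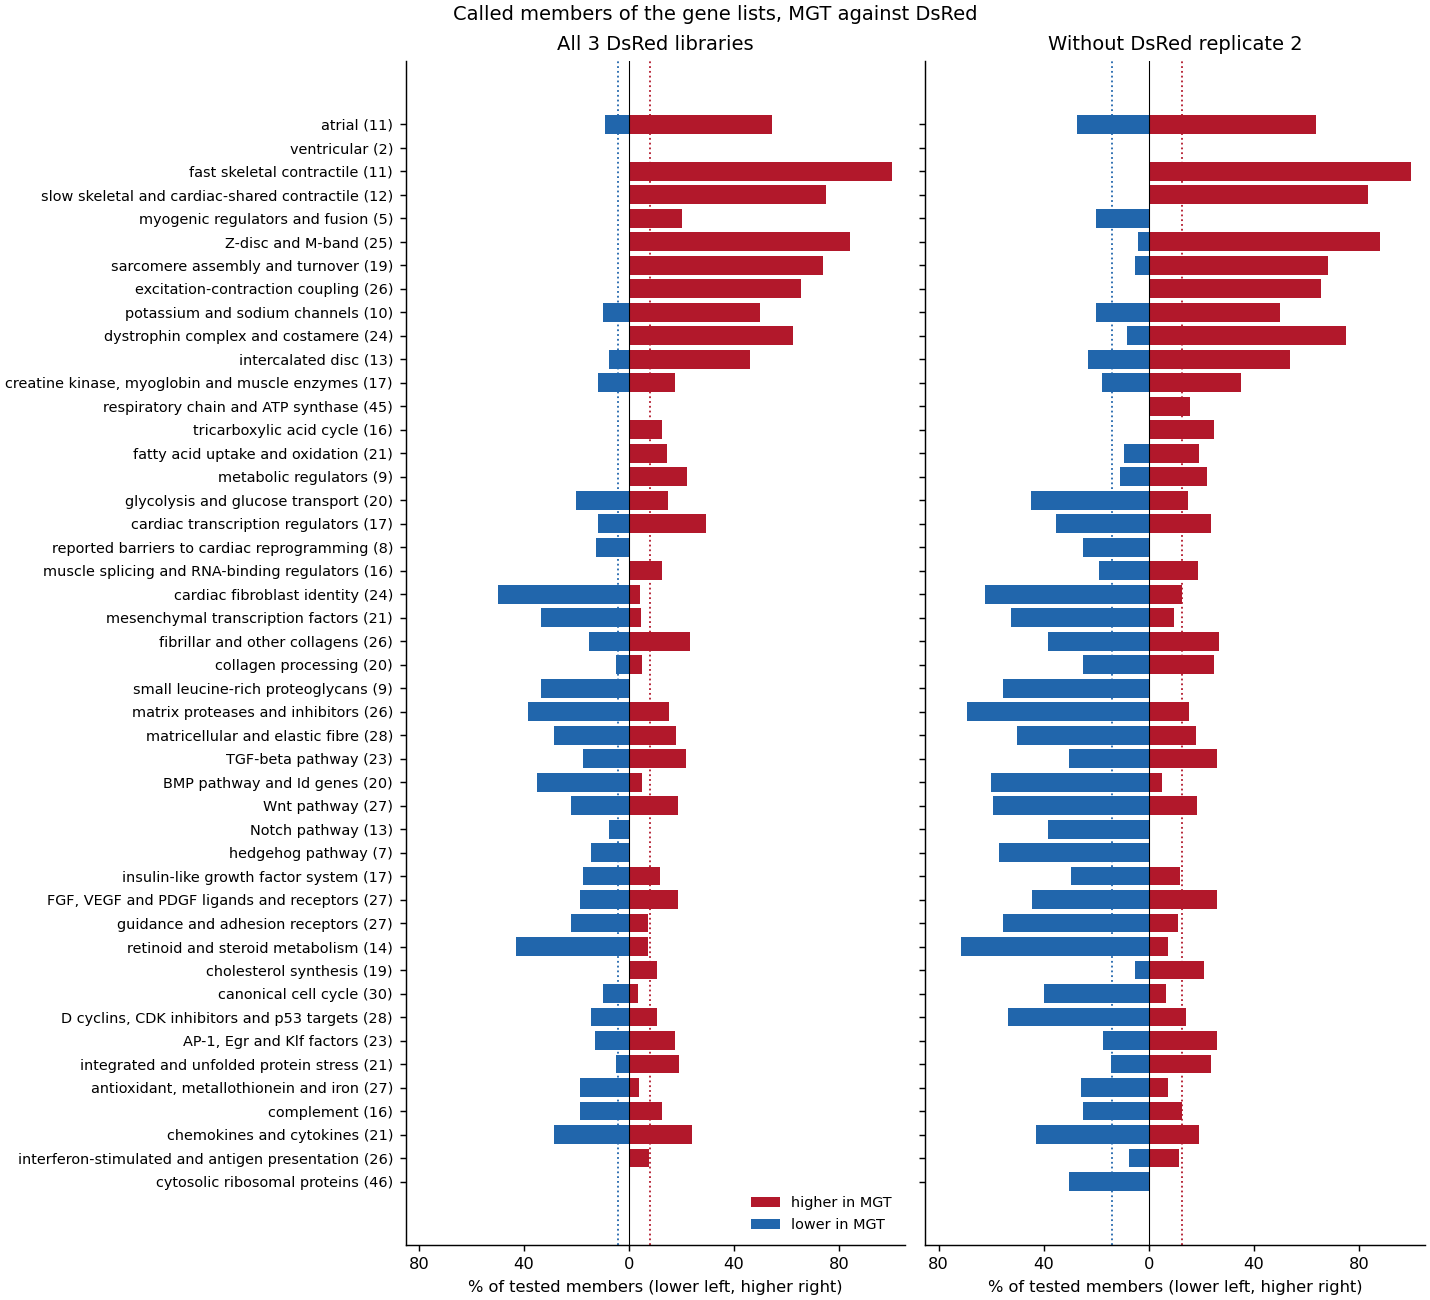
Percent of the tested members of each gene list called higher with MGT (bars to the right) or lower (bars to the left), with all 3 DsRed libraries in the left panel and without DsRed replicate 2 in the right panel; dotted lines mark the percent over all genes tested (8.14% and 4.18%, then 12.5% and 13.8%). The muscle lists extend far to the right in both panels, and most bars to the left lengthen without DsRed replicate 2.

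Several of the largest changes lay outside all lists. Scg2, secretogranin 2 of dense-core vesicles, had 501, 499 and 458 TPM with MGT, against 17.2, 13.1 and 15.3 TPM with DsRed. Scg2 differed by log2 4.91 ± 0.12 (adjusted p = 1.09e-08), and by 4.82 ± 0.07 without DsRed 2. Jam2, a junctional adhesion molecule, had 567, 542 and 537 TPM with MGT, against 31.6, 25.4 and 34.6 TPM with DsRed (log2 4.13 ± 0.12, adjusted p = 3.15e-08, and 4.01 ± 0.07 without DsRed 2). Anxa8, an annexin, had 184, 192 and 171 TPM with MGT, against 9.33, 7.19 and 9.12 TPM with DsRed. Anxa8 differed by log2 4.27 ± 0.13 (adjusted p = 2.95e-08), and by 4.16 ± 0.07 without DsRed 2. All 3 were present at low levels in the controls. Dbh, the enzyme that makes noradrenaline from dopamine, had 30.4, 28.0 and 28.9 TPM with MGT, against 0.633, 0.393 and 0.435 TPM with DsRed. Dbh differed by log2 4.34 ± 0.15 (adjusted p = 7.9e-08), and by 4.30 ± 0.11 without DsRed 2. Adprhl1, a heart-specific protein related to ADP-ribosylhydrolases, had 35.2, 40.6 and 39.3 TPM with MGT, against 0.988, 0.732 and 1.31 TPM with DsRed (log2 4.30 ± 0.15, adjusted p = 9.41e-08, and 4.20 ± 0.10 without DsRed 2). Tmem100, a membrane protein of the developing vasculature, had 34.0, 39.5 and 37.2 TPM with MGT, against 0.292, 0.295 and 0.237 TPM with DsRed. Tmem100 differed by log2 4.89 ± 0.15 (adjusted p = 3.32e-08), and by 4.90 ± 0.11 without DsRed 2. Dbh and Tmem100 were below 1 TPM in each DsRed library. Among falls, Plac8 had 61.8, 62.2 and 58.8 TPM with MGT, against 623, 542 and 373 TPM with DsRed. Plac8 differed by log2 -3.02 ± 0.19 (adjusted p = 5.08e-06), and by -2.96 ± 0.20 without DsRed 2. Mbd1, which binds methylated DNA, had 26.9, 25.3 and 23.3 TPM with MGT, against 131, 78.3 and 153 TPM with DsRed (log2 -2.17 ± 0.22, adjusted p = 0.000138, and -2.45 ± 0.10 without DsRed 2). Slc43a3, a nucleobase transporter, had 11.5, 10.9 and 10.2 TPM with MGT, against 77.1, 41.8 and 75.3 TPM with DsRed. Slc43a3 differed by log2 -2.42 ± 0.22 (adjusted p = 7.08e-05), and by -2.71 ± 0.08 without DsRed 2. The MGT libraries lay below all controls in each. Ptn, the growth factor pleiotrophin, had 5.80, 3.41 and 3.33 TPM with MGT, against 21.4, 25.2 and 25.9 TPM with DsRed (log2 -2.31 ± 0.22, adjusted p = 9.92e-05, and -2.28 ± 0.23 without DsRed 2), and Ifi27l2a, an interferon-inducible gene, had 43.4, 37.7 and 56.8 TPM with MGT, against 322, 230.3 and 218 TPM with DsRed. Ifi27l2a differed by log2 -2.45 ± 0.23 (adjusted p = 9.82e-05), and by -2.52 ± 0.26 without DsRed 2. Triobp met the rule for the largest falls, but its groups nearly touched (0.169, 3.38 and 0.166 TPM with MGT, against 20.9, 3.39 and 11.4 TPM with DsRed), and its call was lost without MGT replicate 1 or 3 or DsRed replicate 1 or 3.

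Markers of other cell types were read beside these results. The 16 macrophage markers summed to between 1943 and 3621 TPM in the MGT libraries and between 776.6 and 2131 TPM in the DsRed libraries, DsRed replicate 3 being the highest control. Lyz2, lysozyme, was the only 1 called higher by limma on the values as deposited, with 1947, 1334 and 2578 TPM with MGT, against 451, 449.9 and 1310.5 TPM with DsRed (log2 1.55 ± 0.41, adjusted p = 0.036, and 1.29 ± 0.44, adjusted p = 0.0665, without DsRed 2). Without DsRed replicate 3, 13 of the 16 were higher, and without DsRed replicate 2 none was called (5 were higher at an unadjusted p under 0.05). With all libraries, 3 were higher after median-ratio scaling, 5 after quantile normalization and 3 after removal of the length trend. The call of Lyz2 was also lost without MGT replicate 1, MGT replicate 3 or DsRed replicate 1. Adgre1, the F4/80 antigen, had 69.0, 42.2 and 74.1 TPM with MGT, against 21.5, 8.76 and 45.7 TPM with DsRed, and the groups overlapped. DsRed replicate 3 was also the highest control in C1qa (166, 113 and 185 TPM with MGT, against 57.7, 70.5 and 137 TPM with DsRed), in Ccl9 (62.8, 50.2 and 65.1 TPM with MGT, against 17.3, 8.29 and 34.6 TPM with DsRed) and in Spp1 (889, 682 and 1545 TPM with MGT, against 305, 250.5 and 878 TPM with DsRed). The part of macrophages in these genes was not tested. Of the 3, Ccl9 was called higher (log2 1.72, adjusted p = 0.0444), and that call was lost without any 1 MGT library, DsRed replicate 1 or DsRed replicate 2.

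Among other chemokine genes, Cxcl12, a stromal chemokine, had 328, 330.5 and 329 TPM with MGT, against 1146, 639 and 900.3 TPM with DsRed (log2 -1.40 ± 0.18, adjusted p = 0.000648, and -1.62 ± 0.09 without DsRed 2). Ccl20 had 5.70, 5.22 and 4.49 TPM with MGT, against 19.2, 21.9 and 22.5 TPM with DsRed (log2 -1.86 ± 0.37, adjusted p = 0.00942, and -1.84 ± 0.43 without DsRed 2), and Cxcl16 had 151, 147 and 158 TPM with MGT, against 66.3, 77.5 and 79.5 TPM with DsRed. Cxcl16 differed by log2 1.03 ± 0.11 (adjusted p = 0.000175), and by 1.06 ± 0.08 without DsRed 2. Cxcl12 and Ccl20 were lower, and Cxcl16 was higher, in every MGT library. Ifit1, an interferon-stimulated gene, had 76.6, 59.7 and 65.5 TPM with MGT, against 255, 107 and 80.5 TPM with DsRed, with DsRed replicate 1 far above the rest, and it was not called in either fit (adjusted p = 0.16 with all libraries and 0.114 without DsRed 2). H2-K1, a class I antigen-presenting chain with near-identical relatives, had 739, 736 and 758 TPM with MGT, against 457, 328 and 388 TPM with DsRed. H2-K1 differed by log2 0.94 ± 0.12 (adjusted p = 0.000726), and by 0.82 ± 0.07 without DsRed 2.

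Endothelial markers were low in both groups (10 genes summing to 15.9 to 24.4 TPM with MGT and 29.1 to 34.6 TPM with DsRed). Of the 7 tested, limma called none with all libraries (4 were lower at an unadjusted p under 0.05). Without DsRed replicate 2, Cdh5 and Tek were lower, and 3 were lower after quantile normalization. No Schwann cell or lymphocyte marker passed the filter on low values. Epicardial and mesothelial markers were split, with 3 of 10 higher and 6 lower (3 and 7 without DsRed 2): Msln, mesothelin, had 239, 247 and 236 TPM with MGT, against 22.7, 26.9 and 32.2 TPM with DsRed (log2 3.11 ± 0.13, adjusted p = 3.18e-07, and 3.11 ± 0.12 without DsRed 2), and Wt1, an epicardial factor, had 7.43, 9.11 and 8.39 TPM with MGT, against 28.1, 16.2 and 31.7 TPM with DsRed (log2 -1.45 ± 0.23, adjusted p = 0.00242, and -1.73 ± 0.11 without DsRed 2). Of 9 smooth muscle markers, 2 were higher and 4 lower (2 and 5 without DsRed 2). Acta2, smooth muscle actin, had 3986, 3973 and 3994 TPM with MGT, against 2849, 2787 and 3011 TPM with DsRed (log2 0.47 ± 0.08, adjusted p = 0.00302, and 0.44 ± 0.04 without DsRed 2). Its call was lost after median-ratio scaling (adjusted p = 0.159), quantile normalization (0.0587) and removal of the length trend (0.0937), so the list then held 1 higher gene. Actg2, the enteric isoform, had 36.4, 32.0 and 31.8 TPM with MGT, against 88.6, 99.3 and 123 TPM with DsRed. Actg2 differed by log2 -1.59 ± 0.15 (adjusted p = 9.82e-05), and by -1.62 ± 0.15 without DsRed 2. Cspg4, the NG2 proteoglycan of pericytes, had 30.7, 36.1 and 30.5 TPM with MGT, against 3.18, 2.20 and 2.31 TPM with DsRed (log2 3.24 ± 0.17, adjusted p = 1.27e-06, and 3.16 ± 0.14 without DsRed 2), and Rgs5, another pericyte marker, had 2.20, 1.95 and 1.90 TPM with MGT, against 13.5, 5.45 and 16.6 TPM with DsRed. Rgs5 differed by log2 -1.97 ± 0.34 (adjusted p = 0.00435), and by -2.41 ± 0.19 without DsRed 2. The 8 cardiomyocyte markers that passed the filter were higher in both fits, and the 10 on the list summed to 4501 to 4994 TPM with MGT and 170.9 to 258.5 TPM with DsRed, while Myl2 and Myl3 of that list stayed near 0. Markers near 0 with DsRed, such as Ttn, passed the filter only through libraries that received MGT.

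DsRed replicate 2 moved some genes far without a call in either fit. Ptges3-ps, a pseudogene, had 77.0, 55.1 and 53.2 TPM with MGT, against 94.0, 0 and 66.5 TPM with DsRed, and its log2 fold change was 1.74 with all libraries and -0.37 without DsRed 2. Tomm22, a mitochondrial import receptor, had 31.3, 14.8 and 29.6 TPM with MGT, against 32.1, 0 and 12.3 TPM with DsRed, and its log2 fold change was 1.71 with all libraries and 0.25 without DsRed 2. Both were listed at 0 in DsRed replicate 2 only. Ulk4, a kinase-like gene, had 0.661, 3.40 and 1.03 TPM with MGT, against 2.97, 65.0 and 2.30 TPM with DsRed, and its log2 fold change was -1.95 with all libraries and -0.56 without DsRed 2. There DsRed replicate 2 was the high library. Of the 10 genes moved most by this library, Nppa and Pagr1a were called without it, and none was called with it.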

How the data were processed

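RNA from bulk cultures was sequenced, and the authors deposited 1 table of TPM (a length-corrected share of all transcripts) per gene symbol. Kallisto, DESeq2 and the build mm9 are named in the submitters' processing notes, with no roles or versions; the annotation is not given in the sources used here. Lines named by a date were left out. Values were tested as log2(TPM + 1) for genes with a mean of at least 1 TPM over the 9 libraries, with limma 3.58.1 in R 4.3.3 (group means for the 3 groups, variance trend, 6 residual degrees of freedom), for MGT minus DsRed, p-values adjusted by Benjamini-Hochberg across every tested gene, a threshold of 0.05, and again without DsRed replicate 2. The script was tested on simulated data. Fold changes on this scale understate changes of low genes. Replicate numbers were not used to pair libraries in these fits. Genes were named from the 40 largest rises and falls of at least 10 TPM called in both fits without overlap, from each list those with the smallest adjusted p and members its account needed, and the 10 genes moved most by DsRed replicate 2. Members and lists were chosen with earlier results of these data known. The scaling, filter, pseudocount, weights, block, length trend and left-out libraries were varied. Promoter windows came from RefSeq (GRCm38.p6). Results of some list members are not reported here.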

Additional observations from a re-analysis of the deposited data

Results flagged for a closer look

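The deposited table also held 25 lines whose name was a date instead of a symbol, which entered no comparison because the gene behind each cannot be read from its name. A mean of at least 1 TPM over the 6 compared libraries was reached by 19 such lines. Among lines with a mean of at least 1 TPM in the higher group, 6 were higher in all 3 MGT libraries than in all 3 DsRed libraries, and 4 were lower in all 3. They are listed here because these values lie outside the comparison. Over all genes tested, groups without overlap made up 19.1% with MGT higher and 9.63% with MGT lower, and no test was made on these lines.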

How the results depend on the processing

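The count of calls, 1630 with all libraries, was 1066 with only the 6 compared libraries in the fit and 2915 with limma array weights. The count of falls, 553, was 873 after median-ratio scaling, 1135 after quantile normalization, 343 with only the 6 compared libraries, 1402 with array weights and 993 after removal of each library's length trend. Leaving out 1 library in turn gave 1068 to 3476 calls, 726 to 1652 rises and 342 to 1824 falls, the highest each time without DsRed replicate 2. Fits that left some libraries out also rested on fewer libraries. The array weights gave DsRed replicate 2 a weight of 0.05, against 0.695 to 2.09 for the other libraries, so it counted little in that fit. The causes of these shifts were not tested. A pseudocount of 0.1 (1546 calls), no filter on low values (1571) and a minimum mean of 5 TPM (1257) kept the counts within 1.5 times. The replicate numbers were not used to pair libraries in the main fit. Deviations from the group mean correlated at 0.0334, 0.1321 and 0.0635 between same-numbered MGT and DsRed libraries. Between differently numbered libraries they correlated at -0.1346 to 0.0804. Whether the numbers pair the libraries was not tested. A replicate block gave 1418 calls, with 946 rises and 472 falls. A set of 343 genes was followed through these settings. It held the largest changes, the delivered factors, the genes moved most by DsRed replicate 2 and, of each list, up to 6 members with the smallest adjusted p. None of the 343 changed direction while called, and between 302 and 337 of them stayed on the same side of the threshold in each setting. List members outside this set could change direction. Vcl had a small positive log2 fold change with all libraries, without a call, and was called lower without DsRed replicate 2. With only the 6 compared libraries in the fit, 41 of the 343 genes lost their call. Among genes named above, the calls lost in that fit included those of Atp2a2, Ccl9, Flnc, Lyz2, Nr2f2, Tpi1 and Triobp. They also included those of Acsl1, Pdgfra, Ly6a, Jag1, Tgfbr1, Idh3a, Pdhx, Col16a1, Col8a1, Smyd1 and Mylpf. TPM values keep no depth, so counting error cannot be given, and of the settings tried, leaving out DsRed replicate 2 moved the count of falls the most.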
